A study of Homo sapiens with 8 samples.

Results

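Palbociclib added to olaparib was examined in A2780, a long-established line of human ovarian carcinoma cells, by comparing 2 libraries of cells given both drugs with 2 libraries of cells given olaparib alone. These are 4 of the 8 samples of the study, and of the 31721 genes in the deposited table the 12443 with a mean of at least 1 FPKM over the 8 libraries were tested. FPKM is the number of fragments per kilobase of exon, scaled for the size of the library. All cells were treated for 24 h, with olaparib plus palbociclib (the combination), olaparib, palbociclib, or DMSO, the solvent, and each group has 2 libraries labelled as biological repeats. The labels give no dose and do not say that the repeats were separate cultures, so p-values measure the spread between these libraries, which may be technical. A2780 is 1 line, and no other line bears on the values given here.

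Olaparib blocks PARP1 and PARP2, enzymes that sense DNA strand breaks and that cells with impaired homologous recombination depend on. Palbociclib blocks CDK4 and CDK6, the kinases that work with D-type cyclins to phosphorylate the retinoblastoma protein RB. Unphosphorylated RB holds E2F transcription factors inactive at genes for DNA replication, and the related DREAM complex represses mitotic genes through a promoter element called CHR (cell cycle genes homology region). p53, the transcription factor activated by DNA damage, raises CDKN1A, whose product p21 also inhibits cyclin-dependent kinases. The addition of palbociclib thus puts the CDK4 and CDK6 block on top of a PARP block.

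The promoters of 6 genes whose RNA was among the lowest in the combination relative to olaparib within the mitotic and replication lists are shown, because they carry the CHR or E2F letters in the 250 bases before the transcript start. Sequences are from RefSeq on GRCh38.p14, 5′ to 3′ on the strand of the gene, and capitals mark the motif. The first 4 hold a CHR element (TTTGAA, or its reverse complement TTCAAA), and the last 2 hold the E2F word GCGGGAAA. The windows are chr10:128126424-128126673 (minus strand) for MKI67, chr12:53268049-53268298 (plus) for ESPL1, chr16:23678639-23678888 (plus) for PLK1, chr14:54396757-54397006 (plus) for CDKN3, chr19:4909251-4909500 (plus) for UHRF1 and chr16:85688955-85689204 (minus) for GINS2.
MKI67: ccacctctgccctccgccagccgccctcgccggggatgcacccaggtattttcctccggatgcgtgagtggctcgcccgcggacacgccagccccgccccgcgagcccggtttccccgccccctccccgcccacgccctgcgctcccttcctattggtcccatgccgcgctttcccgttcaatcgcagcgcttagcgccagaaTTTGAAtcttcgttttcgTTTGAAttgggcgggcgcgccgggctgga
ESPL1: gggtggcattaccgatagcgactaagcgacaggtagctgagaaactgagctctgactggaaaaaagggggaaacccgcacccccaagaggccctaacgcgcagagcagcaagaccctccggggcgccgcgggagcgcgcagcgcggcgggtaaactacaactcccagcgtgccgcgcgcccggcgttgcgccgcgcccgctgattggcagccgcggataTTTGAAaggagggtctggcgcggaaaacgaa
PLK1: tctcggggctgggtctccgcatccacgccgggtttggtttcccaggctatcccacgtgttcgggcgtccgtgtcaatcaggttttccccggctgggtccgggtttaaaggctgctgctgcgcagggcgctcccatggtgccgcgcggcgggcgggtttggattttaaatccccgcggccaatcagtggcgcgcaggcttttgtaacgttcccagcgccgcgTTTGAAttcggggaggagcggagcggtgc
CDKN3: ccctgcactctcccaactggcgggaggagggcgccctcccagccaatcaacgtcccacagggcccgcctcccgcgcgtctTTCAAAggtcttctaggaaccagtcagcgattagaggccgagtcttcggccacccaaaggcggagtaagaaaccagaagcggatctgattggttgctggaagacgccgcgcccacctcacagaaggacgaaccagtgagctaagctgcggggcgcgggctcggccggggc
UHRF1: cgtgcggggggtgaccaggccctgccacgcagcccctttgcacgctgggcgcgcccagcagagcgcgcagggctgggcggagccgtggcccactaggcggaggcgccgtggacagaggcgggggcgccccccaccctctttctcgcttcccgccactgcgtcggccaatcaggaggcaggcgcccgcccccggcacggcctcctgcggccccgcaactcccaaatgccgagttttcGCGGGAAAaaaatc
GINS2: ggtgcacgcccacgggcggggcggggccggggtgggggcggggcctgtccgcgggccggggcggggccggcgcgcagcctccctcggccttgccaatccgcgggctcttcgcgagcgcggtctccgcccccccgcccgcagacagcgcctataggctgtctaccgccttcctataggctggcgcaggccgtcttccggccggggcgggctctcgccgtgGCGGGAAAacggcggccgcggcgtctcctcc
The CHR elements start 47 and 29 bases before the transcript start in MKI67, 31 in ESPL1, 29 in PLK1 and 170 in CDKN3, and the E2F words start 14 bases before it in UHRF1 and 31 in GINS2. A promoter was matched for 8817 of the 12443 tested genes. In the window from 250 bases before to 50 after the start, TTTGAA or TTCGAA on either strand was found in 36 of 49 G2/M and mitosis promoters (73.5%), against 10.9% of all matched promoters. The E2F words TTTCCCGC, TTTCGCGC, TTTGCCGC and TTTGGCGC, on either strand, were found in 20 of 48 DNA replication promoters (41.7%), against 5.76% of all. CCAAT, the letters of the NF-Y site, was found in 77.6% of the mitotic promoters and 37.5% of all. Among all 2751 matched genes called lower, CHR was found in 13.4% and an E2F word in 8.03%, in the same window. Among the 23 lower by at least 1 on the log2 scale, 9 held CHR and 1 an E2F word. In the 250 bases before the start alone, CHR was found in 55.1% of mitotic promoters and 9.31% of all. The E2F words there were found in 27.1% of replication promoters and 4.79% of all. The CHR and E2F words cannot overlap each other, while CCAAT can share an end base with either. These matches are letters and not measured binding, and mitotic genes are known as a class for them.

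Mitotic and replication genes were lower in the combination than with olaparib alone, with 3 members of these 2 lists as exceptions. In the fit over all genes, limma called 5522 of 12443 genes (44.4%), 2110 of them higher (17.0%) and 3412 lower (27.4%), at a Benjamini-Hochberg adjusted p under 0.05. Of these, 509 were higher and 554 lower by at least 0.5 on the log2(FPKM + 1) scale, and 60 were higher and 41 lower by at least 1. The split of the calls depended on scaling: 38.2% were higher with the deposited values, 53.9% after conversion to TPM (2913 higher, 2494 lower) and 48.7% with limma's voom on recovered reads. The median over all tested genes was −0.04. Counts within the gene lists below are to be read beside these shares, 17.0% higher and 27.4% lower. All calls are of RNA relative to the other RNA of the library, and in bulk samples fewer cells in a phase of the cycle and less RNA per cell cannot be told apart.

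**Figure D1:**
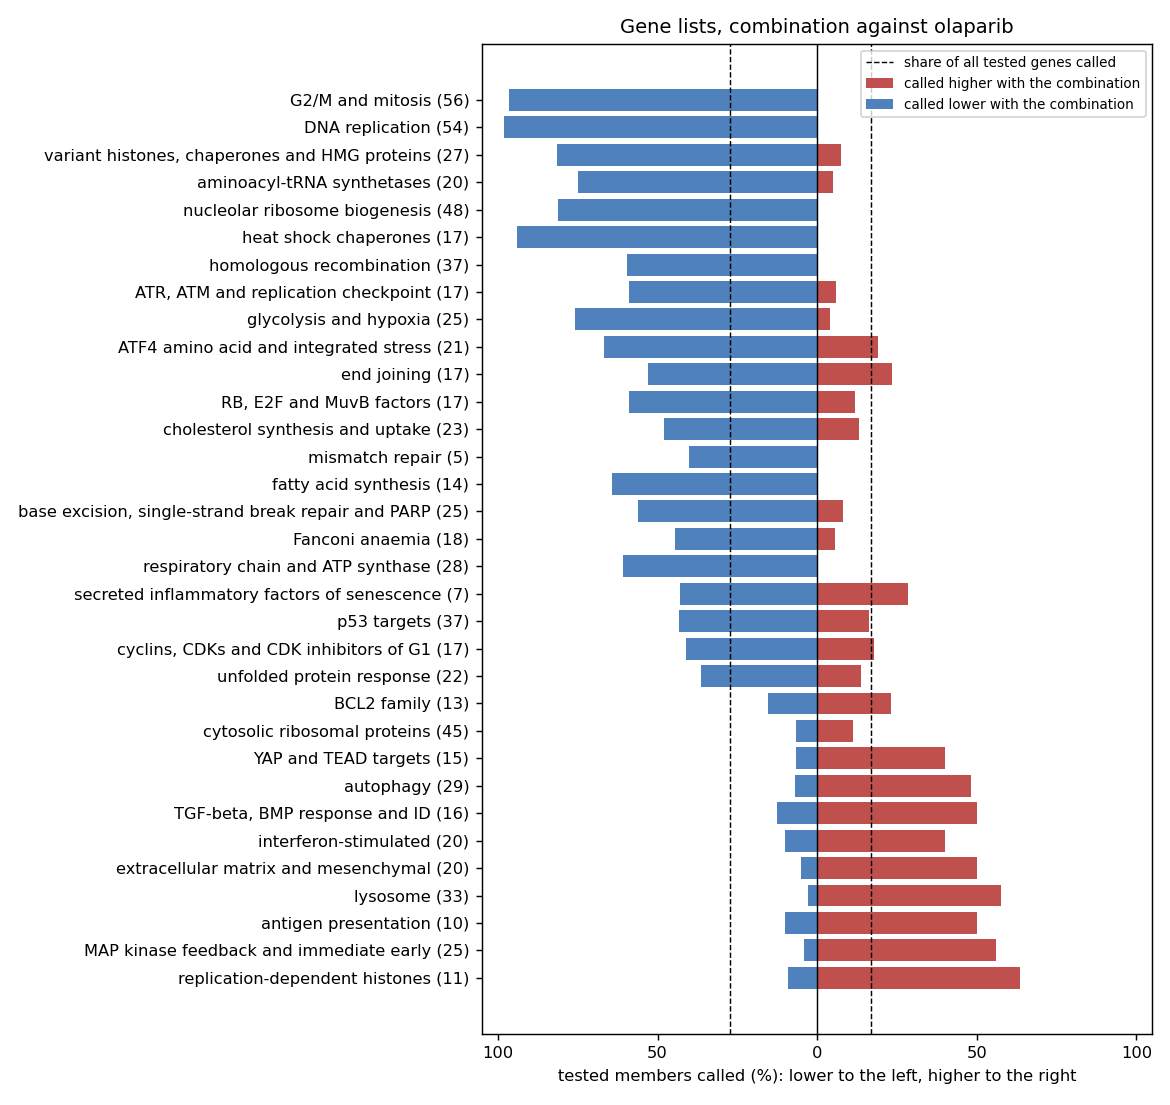
Share of the tested members of each gene list that limma called in the combination against olaparib (horizontal axis, percent, lower calls to the left and higher calls to the right), with the number of tested members in brackets and lists ordered by their median log2 fold change. Dashed lines mark the share of all tested genes called lower (27.4%) and higher (17.0%); the mitosis and replication bars reach almost the full width to the left, and the lysosome and MAP kinase bars lie mostly to the right.

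Of the 56 tested G2/M and mitosis genes, 54 were called lower and none higher, with a median log2 fold change of −0.735, beside −0.776 for palbociclib against DMSO. In 55 of the 56 both combination libraries lay below both olaparib libraries, as they did in 41.9% of all tested genes. CCNA2, cyclin A2, which drives S phase and mitotic entry, had 25.2 and 25.5 FPKM in the combination libraries, against 59.6 and 60.6 FPKM in the olaparib libraries (log2 fold change −1.21 ± 0.04, SE; limma adjusted p = 2.49e-05). The replicates of each treatment lay close together and far from the other treatment. MYBL2, the transcription factor that joins the MuvB core to switch on mitotic genes, had 28.8 and 31.4 FPKM in the combination, against 67.7 and 73.7 FPKM with olaparib (−1.20 ± 0.06; limma adjusted p = 4.08e-05). PTTG1, securin, which restrains separase until anaphase, had 13.7 and 13.5 FPKM in the combination, against 31.3 and 32.4 FPKM with olaparib (−1.17 ± 0.05; limma adjusted p = 3e-05). BIRC5, the survivin subunit of the chromosomal passenger complex, fell by 1.17 ± 0.05, AURKB, its kinase, by 1.13 ± 0.05, and CDCA3, which promotes mitotic entry, by 1.16 ± 0.05.

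Of the genes whose promoters are printed above, MKI67, the proliferation marker Ki-67, had 14.9 and 13.7 FPKM in the combination, against 31.9 and 32.5 FPKM with olaparib (−1.12 ± 0.05; limma adjusted p = 3e-05). ESPL1, separase, the protease that cleaves cohesin, had 7.04 and 7.44 FPKM in the combination, against 16.5 and 16.96 FPKM with olaparib (−1.11 ± 0.04; limma adjusted p = 2.49e-05). PLK1, a mitotic kinase, and CDKN3, a phosphatase of CDKs, fell by 1.05 ± 0.06 and 1.03 ± 0.06. The combination libraries of these 4 genes were all below the olaparib libraries. Of the list, 2 genes did not pass: the phosphatase CDC25C, with 0.19 ± 0.08 (limma adjusted p = 0.0733), and CKAP2, a spindle protein, with −0.105 ± 0.045 (limma adjusted p = 0.0967). CDC25C was called higher after conversion to TPM, with voom, at a mean of at least 5 FPKM and without combination replicate 2.

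**Figure D2:**
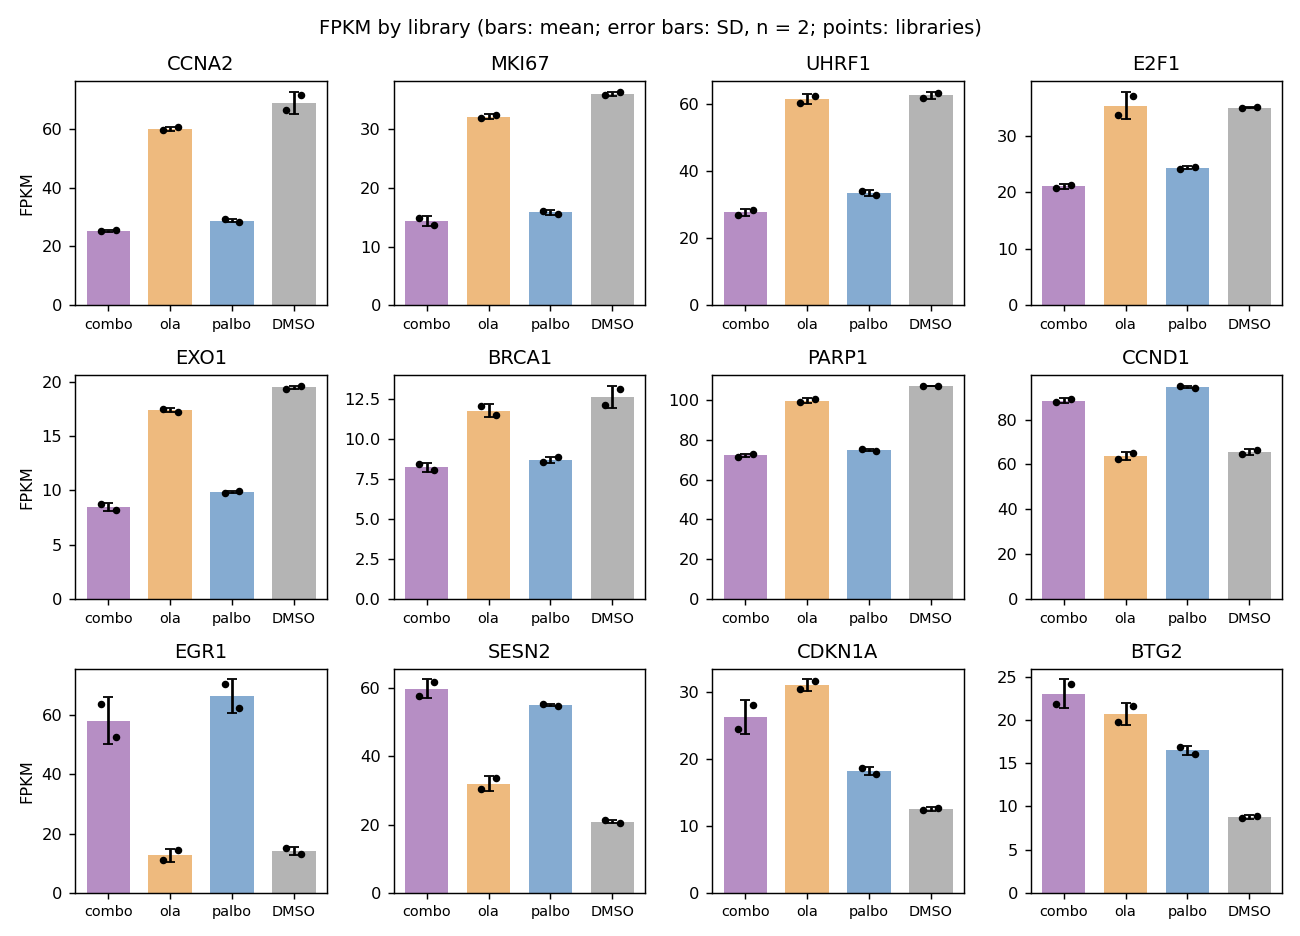
FPKM of 12 genes in each of the 8 libraries (vertical axis, linear from 0), with bars for the mean, error bars for the SD (n = 2) and points for libraries; combo is olaparib plus palbociclib, ola olaparib, palbo palbociclib. CCNA2, MKI67, UHRF1 and E2F1 are low in both groups given palbociclib, EGR1 and SESN2 are high in both, and CDKN1A is lower in the combination than with olaparib and higher with palbociclib than with DMSO.

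DNA replication genes moved the same way: 53 of 54 tested members were called lower, none higher, with a median of −0.63, beside −0.60 for palbociclib against DMSO. UHRF1, which guides maintenance DNA methylation to replicating DNA, had 27.1 and 28.6 FPKM in the combination, against 60.6 and 62.6 FPKM with olaparib (−1.12 ± 0.04; limma adjusted p = 2.49e-05). CHAF1B, a subunit of the chromatin assembly factor CAF-1, had 4.87 and 4.76 FPKM in the combination, against 10.9 and 10.99 FPKM with olaparib (−1.04 ± 0.04; limma adjusted p = 2.49e-05). GMNN, geminin, which blocks re-licensing of origins, and GINS2, a subunit of the replicative helicase, fell by 1.00 ± 0.03 and 0.995 ± 0.044. For each of these 4 genes the combination values were below the olaparib values in every library. The 1 member that did not pass was ORC6, of the origin recognition complex, with −0.10 ± 0.05 (limma adjusted p = 0.156).

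The factors that control these genes were themselves mixed. Of 17 tested RB, E2F and MuvB genes, 10 were lower and 2 higher, with a median of −0.22. E2F1, an activating E2F, had 20.8 and 21.4 FPKM in the combination, against 33.6 and 37.1 FPKM with olaparib (−0.72 ± 0.05; limma adjusted p = 0.000102). E2F2 fell by 0.95 ± 0.06, and the repressive members E2F7 and E2F8 by 0.81 ± 0.06 and 0.91 ± 0.06. All 4 of these E2F genes were lower in both combination libraries than in either olaparib library. RBL1, the pocket protein p107, fell by 0.45 ± 0.06, whereas RBL2, the pocket protein p130 of the DREAM complex, rose by 0.22 ± 0.04 (limma adjusted p = 0.00573). TFDP2, a dimerisation partner of E2F, had 0.15 ± 0.04, and leaving out either combination or either olaparib library ended its call. RB1 itself had 8.60 and 8.29 FPKM in the combination, against 10.2 and 8.74 FPKM with olaparib, which did not pass (−0.14 ± 0.07; limma adjusted p = 0.112) and became a call without olaparib replicate 2 (−0.24; limma adjusted p = 0.0129).

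Among 17 tested G1 cyclins, kinases and inhibitors, 7 were lower and 3 higher, beside 27.4% and 17.0% of all tested genes. CCND1, cyclin D1, the activator of CDK4 and CDK6, had 87.7 and 89.2 FPKM in the combination, against 62.6 and 65.1 FPKM with olaparib (0.46 ± 0.04; limma adjusted p = 0.000153). CCND2 had 0.14 ± 0.04 (limma adjusted p = 0.0381), a call that ended without any 1 of 6 libraries, those of the combination, olaparib and palbociclib. CCND3 fell by 0.27 ± 0.06. The D-type cyclins thus did not move together. CDK4, a target of the drug, had 44.8 and 49.3 FPKM in the combination, against 48.4 and 52.3 FPKM with olaparib, and the ranges overlapped (−0.10 ± 0.06; limma adjusted p = 0.216). CDK6, the other target, was listed at 0.928 FPKM in both combination libraries, against 0.764 and 0.738 FPKM with olaparib, and its mean of 0.901 FPKM kept it out of the test.

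The cyclin E step differed between its 2 genes. CCNE2, which encodes cyclin E2, had 0.966 and 0.866 FPKM in the combination, against 2.20 and 2.01 FPKM with olaparib (−0.695 ± 0.087; limma adjusted p = 0.000952). CCNE1, which encodes the other cyclin E, had 24.2 and 26.1 FPKM in the combination, against 24.9 and 26.7 FPKM with olaparib (−0.04 ± 0.05; limma adjusted p = 0.565), and under quantile normalisation it was called higher. CDK2, the partner of cyclin E, fell by 0.59 ± 0.07. SKP2, which marks the CDK inhibitor p27 for degradation, fell by 0.66 ± 0.03, and CDKN1B, which encodes p27, had 0.002 ± 0.059 (limma adjusted p = 0.984), with a call of 0.14 under quantile normalisation only. CDKN2C, the CDK4 and CDK6 inhibitor p18, fell by 0.295 ± 0.071 (limma adjusted p = 0.014), and the call ended without combination replicate 1 (−0.22) and without olaparib replicate 2 (−0.26).

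Olaparib acts on cells that repair breaks poorly, and only RNA of repair genes, not repair itself, was measured here. Of 37 tested homologous recombination genes, 22 were lower in the combination than with olaparib and none higher (median −0.31), with 1 higher without olaparib replicate 1. BRCA1 had 8.42 and 8.04 FPKM in the combination, against 12.1 and 11.5 FPKM with olaparib (−0.47 ± 0.05; limma adjusted p = 0.00054). BRCA2, which acts later in the same route, had 3.11 and 2.83 FPKM in the combination, against 4.53 and 3.995 FPKM with olaparib (−0.405 ± 0.067; limma adjusted p = 0.00313). Neither gene overlapped between the groups. The fall was also seen without olaparib: for palbociclib against DMSO, 24 of the 37 were lower and none higher (median −0.30), and BRCA1 had −0.49 ± 0.05. In palbociclib against DMSO, 31.4% of all tested genes were called lower and 18.7% higher. EXO1 and DNA2, nucleases of long-range resection, fell by 0.955 ± 0.039 and 0.59 ± 0.06, and RAD51AP1, a strand-exchange accessory factor, by 0.79 ± 0.05. Among those that did not pass were the resection complex genes MRE11 (−0.13 ± 0.06), RAD50 (−0.10 ± 0.04) and NBN (−0.10 ± 0.06), the BRCA2 partner PALB2 (−0.06 ± 0.06) and the annealing factor RAD52 (0.10 ± 0.05). Their limma adjusted p ran from 0.0631 to 0.508, and they are named after their values were seen.

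PARP1, the main target of olaparib, had 71.6 and 72.8 FPKM in the combination, against 98.8 and 100.5 FPKM with olaparib (−0.46 ± 0.03; limma adjusted p = 9.55e-05). PARP2 had 9.11 and 7.89 FPKM in the combination, against 10.8 and 10.6 FPKM with olaparib (−0.31 ± 0.07; limma adjusted p = 0.00816), and HPF1, which directs both enzymes to serine residues, fell by 0.46 ± 0.05. RNA of the drug's targets was thus lower when palbociclib was present, without overlap between the libraries. PARP3, a related enzyme of break repair, was higher, with 5.20 and 5.41 FPKM in the combination against 3.29 and 3.28 FPKM with olaparib (0.56 ± 0.06; limma adjusted p = 0.000444). In the list of base excision, single-strand break repair and PARP genes, 14 of 25 tested members were lower and 2 higher. NEIL3, a DNA glycosylase, fell by 0.77 ± 0.05 and FEN1, the flap endonuclease, by 0.85 ± 0.04.

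The other repair routes held lower and higher calls, beside 27.4% of all tested genes called lower and 17.0% called higher. Of 18 tested Fanconi anaemia genes, 8 were lower, among them FANCI (fell by 0.68 ± 0.06) and its ubiquitin-conjugating enzyme UBE2T (fell by 0.68 ± 0.06), and 1 was higher, FAAP20 at 0.26 ± 0.09. The call of FAAP20 ended on leaving out any 1 library except combination replicate 1. In end joining, 9 of 17 tested members were lower and 4 higher. XRCC6, the Ku70 subunit that binds DNA ends, had 170.4 and 171.2 FPKM in the combination, against 236.7 and 239.2 FPKM with olaparib (−0.48 ± 0.03; limma adjusted p = 0.000104), and PAXX, which binds Ku, fell by 0.74 ± 0.08. LIG4, the ligase of the same route, had 3.79 and 4.51 FPKM in the combination, against 2.78 and 2.41 FPKM with olaparib (0.52 ± 0.08; limma adjusted p = 0.0025), and the nuclease DCLRE1C had 0.31 ± 0.07. Ku70 and the ligase of one route therefore moved in opposite directions. Without combination replicate 1, combination replicate 2 or olaparib replicate 1, the 4 higher calls became 2 in each case.

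Of 17 tested genes of the ATR, ATM and replication checkpoint, 10 were lower and 1 higher. CHEK1, the kinase downstream of ATR, had 7.09 and 6.89 FPKM in the combination, against 10.98 and 10.6 FPKM with olaparib (−0.56 ± 0.04; limma adjusted p = 0.000153). CLSPN, claspin, which brings CHEK1 to ATR, fell by 0.975 ± 0.078, CDC25A, the phosphatase that CHEK1 opposes, by 0.83 ± 0.06, and WEE1 by 0.38 ± 0.04. The 1 higher member was ATM, the kinase that senses double-strand breaks, with 7.03 and 6.54 FPKM in the combination against 5.31 and 4.70 FPKM with olaparib (0.375 ± 0.062; limma adjusted p = 0.00309).

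**Figure D3:**
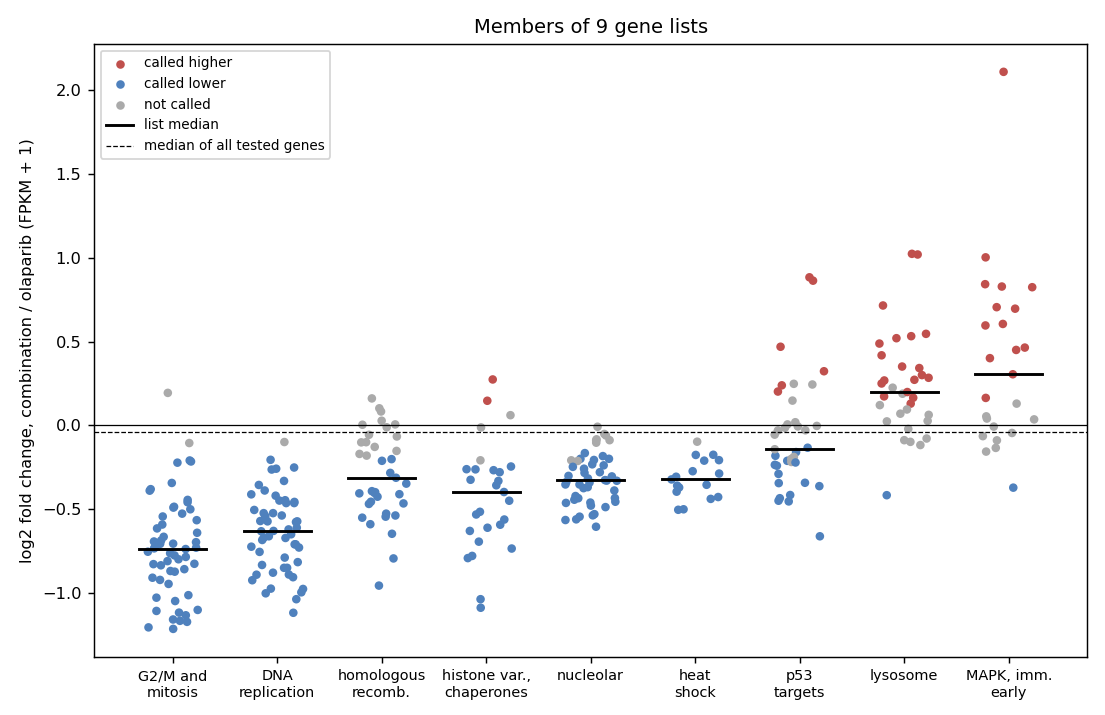
Log2 fold change of combination over olaparib (vertical axis, FPKM + 1) for every tested member of 9 gene lists, with points coloured by their call, a bar for the list median and a dashed line for the median of all tested genes. Mitosis and replication members lie below 0 save CDC25C, the p53 targets spread from −0.66 to 0.88, and the MAP kinase list holds the highest point, EGR1.

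p53 targets, in the presence of olaparib, were more often lower than higher after palbociclib was added, and without olaparib more often higher. Against olaparib, the combination had 16 of 37 tested p53 targets lower and 6 higher (median −0.14), while palbociclib without olaparib had 6 lower and 18 higher against DMSO (median 0.155), where limma called 50.1% of all genes, 31.4% lower and 18.7% higher. The split of the combination against olaparib depended on processing. It was 12 lower and 8 higher with TPM, 13 and 8 under quantile normalisation, 14 and 9 with voom, and 9 and 5 without a filter. The lower count was 10 without combination replicate 1 and 8 without olaparib replicate 2, and the higher count was 3 without combination replicate 2.

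CDKN1A, which encodes p21, had 24.5 and 28.1 FPKM in the combination, 30.5 and 31.7 FPKM with olaparib, 18.7 and 17.8 FPKM with palbociclib, and 12.4 and 12.7 FPKM with DMSO. It was below olaparib in both combination libraries (−0.235 ± 0.064; limma adjusted p = 0.0224) and above DMSO in both palbociclib libraries (0.51 ± 0.06; limma adjusted p = 0.000716). The first call ended without combination replicate 1 (−0.14), on leaving out olaparib replicate 1 (−0.26) or 2 (−0.21), and under quantile normalisation (−0.09). BTG2, an antiproliferative gene, had 21.8 and 24.2 FPKM in the combination, 19.8 and 21.6 FPKM with olaparib, 16.9 and 16.1 FPKM with palbociclib, and 8.64 and 8.90 FPKM with DMSO. Its combination libraries lay above the olaparib libraries by less than the test asked (0.15 ± 0.06; limma adjusted p = 0.0929), a call that was made without combination replicate 1 (0.22), and its palbociclib libraries lay far above DMSO (0.84 ± 0.06; limma adjusted p = 9.37e-05).

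Other p53 targets were lower in the combination than with olaparib. MDM2, the ubiquitin ligase that degrades p53, had 6.38 and 5.75 FPKM in the combination, against 8.76 and 8.32 FPKM with olaparib (−0.43 ± 0.06; limma adjusted p = 0.00135). BAX, which permeabilises mitochondria in apoptosis, had 64.4 and 69.0 FPKM in the combination, against 80.99 and 88.96 FPKM with olaparib (−0.34 ± 0.05; limma adjusted p = 0.00248). AEN, an apoptotic nuclease, POLH, a translesion polymerase, and PHLDA3, an AKT antagonist, fell by 0.66 ± 0.06, 0.45 ± 0.04 and 0.45 ± 0.11, and the call of PHLDA3 ended without olaparib replicate 2 (−0.39). The highest members were SESN2, which restrains mTORC1, with 57.8 and 61.8 FPKM in the combination against 30.4 and 33.5 FPKM with olaparib (0.88 ± 0.06; limma adjusted p = 8.05e-05), FUCA1, a lysosomal fucosidase (0.86 ± 0.07), and SERTAD1, a CDK4 regulator (0.47 ± 0.07). The list therefore split, with SESN2 and FUCA1 far above olaparib and AEN far below. Palbociclib against DMSO also gave lower calls for AEN (−0.56 ± 0.06), POLH (−0.45 ± 0.04) and MDM2 (−0.24 ± 0.06), so their fall was not limited to olaparib. There BAX was not called (−0.08 ± 0.05) and PHLDA3 was higher (0.30 ± 0.11). SESN2, FUCA1 and SERTAD1 were called higher in both comparisons.

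**Figure D4:**
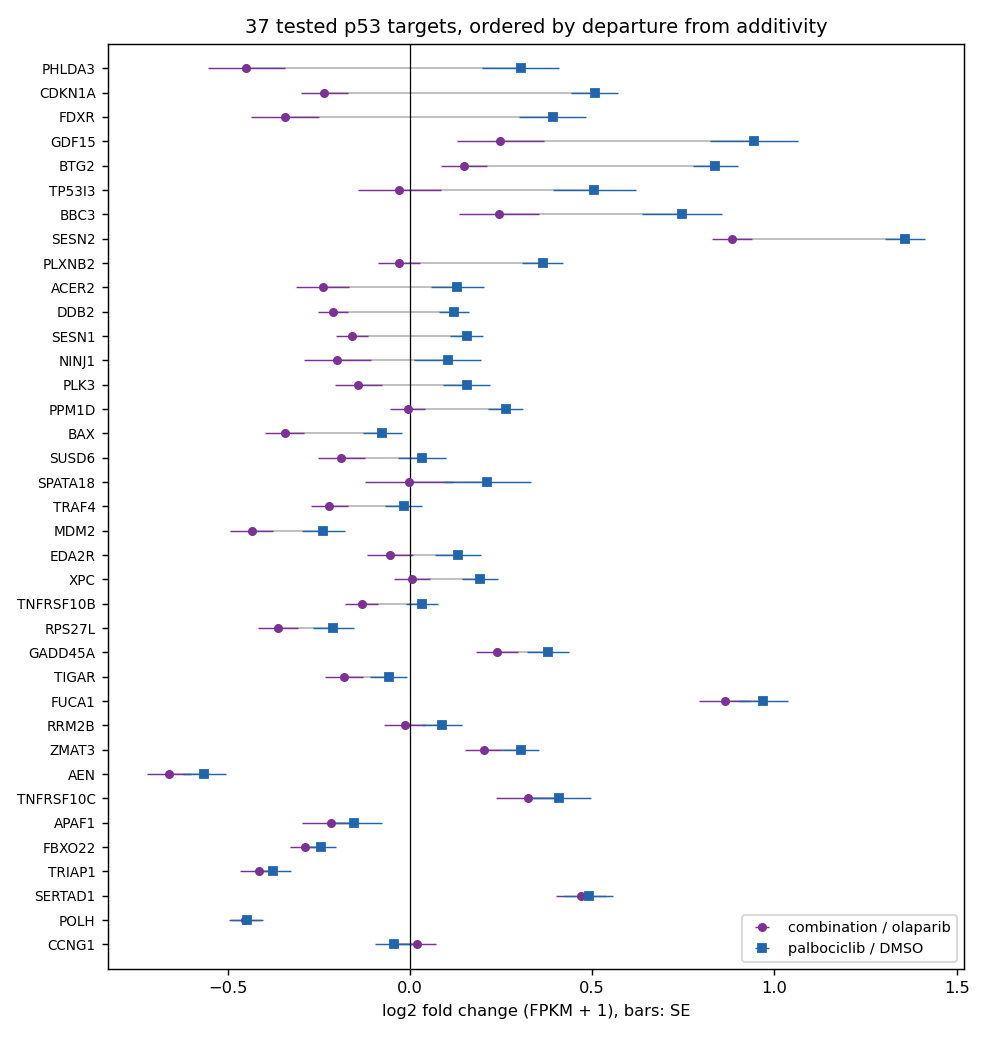
Log2 fold changes (horizontal axis, FPKM + 1) of the 37 tested p53 targets in the combination over olaparib (circles) and in palbociclib over DMSO (squares), with SE bars, ordered by the difference between them. The circle lies left of the square in 36 of the 37 genes, CCNG1 being the other, and most widely in PHLDA3, CDKN1A and FDXR.

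The difference between these effects, the departure from additivity, is the log2 fold change of combination over olaparib minus that of palbociclib over DMSO, and limma called it in 1 of 12443 genes (0.00804%), an unnamed gene that is not in the p53 list. Without adjustment, 1315 genes (10.6%) had p under 0.05, and among the 37 p53 targets 19 did (51.4%), all 19 below 0. The median departure was −0.20 in the p53 list and 0.02 over all tested genes, and 36 of the 37 were below 0. CDKN1A had −0.74 ± 0.09 (limma adjusted p = 0.159) and BTG2 −0.69 ± 0.09 (limma adjusted p = 0.184). With voom on the recovered reads 121 genes were called, 117 of them below 0 and 11 of them p53 targets, CDKN1A at −0.795 ± 0.084 (limma voom adjusted p = 3.5e-05) and BTG2 at −0.77 ± 0.09 (limma voom adjusted p = 0.000117) included. Across the single settings and libraries left out, 16 to 25 p53 targets had unadjusted p under 0.05, all below 0 each time.

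The departure also moved with base composition. Across 12280 genes its Spearman correlation with exon GC content was −0.44, as a description over genes that share libraries, and the median departure was 0.07 among the genes in the lowest of 4 equal classes of GC and −0.09 in the highest. The p53 targets had a median GC of 50.8%, against 48.3% for all tested genes. The 117 genes called below 0 with voom, a fit without GC correction, had a median GC of 62.9%. How far GC bears on the voom calls was not tested. Spearman correlations with GC were 0.22 for palbociclib against DMSO and 0.02 for the combination against olaparib. After a GC correction of each library, chosen after the data were seen, all 37 p53 targets were below 0, 25 at unadjusted p under 0.05, with a median of −0.20, and no gene passed the adjusted test.

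**Figure D5:**
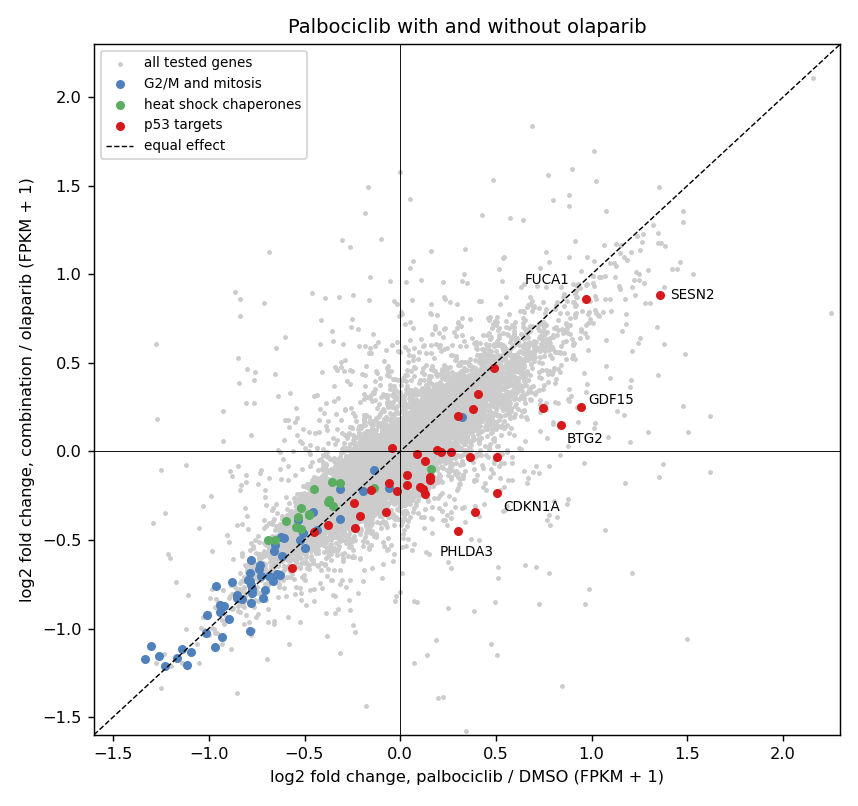
Log2 fold change of combination over olaparib (vertical axis) against that of palbociclib over DMSO (horizontal axis) for all tested genes in grey, with 3 lists coloured; the dashed line marks equal effects, and 5 genes lie outside the axes. Mitotic genes follow the line, heat shock genes lie mostly above it and p53 targets below it.

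Most of the palbociclib response was shared with and without olaparib. These comparisons use different libraries, and across genes their log2 fold changes had a Pearson r of 0.778 and a Spearman rho of 0.819, given as a description. Of 4552 genes called in both, 2906 were lower in both, 1624 higher in both and 22 opposite. The same-direction genes are 82.0% of those called for the combination against olaparib and 72.7% of those called for palbociclib against DMSO. Of the 22 opposite genes, 10 are protein-coding, and all 10 were lower in the combination than with olaparib and higher with palbociclib than with DMSO: CDKN1A, FDXR, PHLDA3, DDB2 and SESN1 of the p53 list, and DDIT4, DPYSL4, APOBEC3B, CNIH3 and SLC6A8 outside it. They are named because of their values. DDIT4, an inhibitor of mTORC1, had 18.4 and 18.9 FPKM in the combination, against 21.4 and 22.4 FPKM with olaparib (−0.22 ± 0.04; limma adjusted p = 0.00513), and 18.4 and 18.5 FPKM with palbociclib, against 14.5 and 15.2 FPKM with DMSO (0.30 ± 0.04; limma adjusted p = 0.00111).

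Of 48 tested nucleolar ribosome biogenesis genes, 39 were lower and none higher (median −0.33). FBL, fibrillarin, which methylates ribosomal RNA, had 82.5 and 86.8 FPKM in the combination, against 123.3 and 128.0 FPKM with olaparib (−0.56 ± 0.04; limma adjusted p = 0.000118), and TCOF1, treacle, a factor for ribosomal RNA synthesis, fell by 0.60 ± 0.05. MYC, a transcription factor that activates this gene class, was higher, with 110.6 and 119.6 FPKM in the combination against 83.1 and 90.8 FPKM with olaparib (0.40 ± 0.05; limma adjusted p = 0.00133). MYC and the nucleolar list thus had opposite signs, without overlap between the libraries for either MYC or FBL. Among 45 cytosolic ribosomal protein genes 5 were higher and 3 lower, and the higher count was 25 with TPM, 26 with quantile normalisation and 23 with voom, so no direction is given for them. The higher count was 13 without combination replicate 1, and 2, 3 and 2 without combination replicate 2, olaparib replicate 1 and olaparib replicate 2, and the lower count was 1 and 6 without combination replicates 1 and 2 and 0 without olaparib replicate 2. Many of these genes have processed copies, which could share their reads.

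Of 17 tested heat shock chaperones 16 were lower (median −0.32), and HSPB1 did not pass (−0.10 ± 0.08). HSP90AA1, a chaperone of kinases, had 191.6 and 186.7 FPKM in the combination, against 272.7 and 264.4 FPKM with olaparib (−0.50 ± 0.05; limma adjusted p = 0.000268), and HSPD1, the mitochondrial chaperonin, fell by 0.50 ± 0.04. The fall was 0.69 for HSP90AA1 and 0.65 for HSPD1 with palbociclib alone, and the median departure of the list was 0.12, with 8 of 17 members at unadjusted p under 0.05, all above 0. Over all tested genes the median departure was 0.02, and 10.6% had unadjusted p under 0.05. No member of the list passed the adjusted test for the departure, in the main fit or with voom. Of 20 tested aminoacyl-tRNA synthetases 15 were lower and 1 higher, and FARSB, for phenylalanine, fell by 0.80 ± 0.07. Of 21 tested ATF4 and amino acid genes 14 were lower and 4 higher, the 4 becoming 2 without olaparib replicate 2 or any 1 DMSO or palbociclib library. SLC1A5, a glutamine transporter, had 26.58 and 29.03 FPKM in the combination, against 49.3 and 52.1 FPKM with olaparib (−0.84 ± 0.05; limma adjusted p = 8.05e-05), while SLC38A2, an amino acid transporter induced by starvation, had 195.4 and 178.4 FPKM, against 129.0 and 122.6 FPKM (0.57 ± 0.05; limma adjusted p = 0.000291). In the unfolded protein response list 8 of 22 were lower and 3 higher, beside 27.4% and 17.0% of all tested genes. Under quantile normalisation 1 was lower and 6 higher, and the higher calls did not all hold when either olaparib library was left out.

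In metabolism, 19 of 25 tested glycolysis and hypoxia genes were lower and 1 higher (median −0.30). LDHA, lactate dehydrogenase, had 115.6 FPKM in both combination libraries, against 202.6 and 197.9 FPKM with olaparib (−0.79 ± 0.04; limma adjusted p = 4.92e-05). SLC2A1, the glucose transporter GLUT1, had 13.4 and 12.5 FPKM in the combination, against 21.3 and 22.2 FPKM with olaparib (−0.70 ± 0.04; limma adjusted p = 7.9e-05), and HK2, hexokinase, fell by 0.67 ± 0.04. SLC2A3, the transporter GLUT3, was the 1 higher member (0.315 ± 0.038), so both glucose transporters moved in opposite directions. Of 28 respiratory chain genes 17 were lower, a count that was 10 with TPM, 5 with quantile normalisation, and 11 and 10 without olaparib replicates 1 and 2. SDHB, a subunit of succinate dehydrogenase, fell by 0.38 ± 0.04. In cholesterol synthesis and uptake 11 of 23 were lower and 3 higher, with the sterol isomerase EBP falling by 0.58 ± 0.06, and the 3 became 1 without combination replicate 1 or olaparib replicate 2. In fatty acid synthesis 9 of 14 were lower, or 5 without olaparib replicate 1 and 5 under quantile normalisation. ACLY, which makes cytosolic acetyl-CoA, fell by 0.33 ± 0.04.

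Lysosome and autophagy genes were more often higher than lower in the combination. Of 33 tested lysosome genes 19 were higher and 1 lower (median 0.20). GRN, progranulin, had 73.7 and 82.6 FPKM in the combination, against 36.3 and 39.5 FPKM with olaparib (1.02 ± 0.07; limma adjusted p = 9.84e-05). LIPA, lysosomal acid lipase, had 43.8 and 40.2 FPKM in the combination, against 20.7 and 19.7 FPKM with olaparib (1.02 ± 0.06; limma adjusted p = 6.76e-05). The combination libraries of both lay well above the olaparib libraries. CTSF, cathepsin F, and GAA, acid glucosidase, rose by 0.715 ± 0.046 and 0.55 ± 0.06, and GUSB, beta-glucuronidase, was the lower member (−0.42 ± 0.04), with 2 lower without olaparib replicate 1. Of 29 autophagy genes 14 were higher and 2 lower, and the 14 became 9 without combination replicate 2 or olaparib replicate 1 and the 2 became 1 without combination replicate 1. WIPI1, which binds the forming autophagosome, had 4.23 and 4.05 FPKM in the combination, against 1.83 and 1.52 FPKM with olaparib (0.94 ± 0.08; limma adjusted p = 0.000184), and GABARAPL1, an autophagosome membrane protein, rose by 0.71 ± 0.05. ATG3, the enzyme that attaches such proteins to lipid, fell by 0.495 ± 0.060.

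Of 25 tested MAP kinase feedback and immediate early genes 14 were higher and 1 lower (median 0.305), and in 15 both combination libraries lay above both olaparib libraries, as they did in 30.1% of all tested genes. EGR1, an immediate early transcription factor, had 63.7 and 52.4 FPKM in the combination, against 11.2 and 14.3 FPKM with olaparib (2.11 ± 0.14; limma adjusted p = 8.84e-05). This was the highest log2 fold change of any protein-coding gene tested, and palbociclib against DMSO gave 2.16. FOS, another immediate early factor, had 4.90 and 4.61 FPKM in the combination, against 1.65 and 2.11 FPKM with olaparib (1.00 ± 0.08; limma adjusted p = 0.000208). DUSP6, a phosphatase of ERK, and SPRY4, an inhibitor of receptor signalling, rose by 0.83 ± 0.07 and 0.84 ± 0.05. All 4 were above olaparib in both combination libraries. The lower member, IER3, had −0.37 ± 0.12, a call that ended without combination replicate 1 (−0.21), olaparib replicate 2 (−0.27) or any 1 DMSO or palbociclib library, and 2 members were lower without olaparib replicate 1.

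Of 15 YAP and TEAD targets 6 were higher and 1 lower, CYR61, a matricellular protein, with 75.4 and 74.8 FPKM in the combination against 36.2 and 38.6 FPKM with olaparib (0.99 ± 0.06; limma adjusted p = 6.76e-05), and TEAD4 lower by 0.54 on the log2 scale. Of 16 TGF-beta, BMP and ID genes 8 were higher and 2 lower, or 5 higher without olaparib replicate 1 and 1 lower without combination replicate 1 or olaparib replicate 2. ID2, which holds bHLH factors inactive, had 45.6 and 47.8 FPKM in the combination, against 26.6 and 30.2 FPKM with olaparib (0.70 ± 0.10; limma adjusted p = 0.00158). Of 20 extracellular matrix and mesenchymal genes 10 were higher and 1 lower, with the collagen genes COL1A2 (0.57 ± 0.04), COL6A1 (0.555 ± 0.060) and COL11A1 (0.52 ± 0.04) higher and COL5A2 lower (−0.30 ± 0.05).

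Of 20 tested interferon-stimulated genes 8 were higher and 2 lower, and the 8 became 4 without olaparib replicate 2 and the 2 became 1 without combination replicate 2. IFIT1, which binds foreign RNA, had 16.4 and 15.8 FPKM in the combination, against 6.81 and 6.37 FPKM with olaparib (1.175 ± 0.043; limma adjusted p = 2.49e-05), and STAT2, the interferon signal transducer, had 8.46 and 7.84 FPKM, against 4.58 and 4.62 FPKM (0.71 ± 0.06; limma adjusted p = 0.000166). USP18, which restrains interferon signalling, fell by 0.42 ± 0.06. Of 43 listed interferon-stimulated genes 21 were below the filter and not tested. Among these, MX1, MX2, OAS1 and OAS2 had means of 0.00157 to 0.0114 FPKM, so the counts cover only part of the list. Of 10 antigen presentation genes 5 were higher and 1 lower. HLA-E, a ligand of natural killer cell receptors, had 0.66 ± 0.07 and HLA-C 0.37 ± 0.05, and the reads of HLA genes are uncertain because the genes resemble each other. Of 28 listed secreted inflammatory factors of senescence 7 were tested, 2 higher and 3 lower, and none of the 3 passed without combination replicate 1 or olaparib replicate 2. TIMP1, a metalloproteinase inhibitor, had 140.0 and 140.3 FPKM in the combination, against 63.5 and 66.4 FPKM with olaparib (1.10 ± 0.04; limma adjusted p = 3e-05), and it passed under every alternative, which MMP10, IGFBP4, PLAUR and NFKBIA did not. In the BCL2 family 3 of 13 were higher, among them MCL1 (0.20 ± 0.04), and 2 lower, BAX and BCL2L2. Of all tested genes 17.0% were called higher and 27.4% lower, so no direction is given for this family.

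Histone genes split by class. Of 27 variant histones, histone chaperones and HMG proteins 22 were lower and 2 higher (median −0.40), the 2 becoming 1 without combination replicate 1 or olaparib replicate 2. HMGB2, a DNA-bending protein of proliferating cells, had 48.5 and 50.5 FPKM in the combination, against 105.9 and 106.7 FPKM with olaparib (−1.09 ± 0.04; limma adjusted p = 2.49e-05), and H2AFX, the variant phosphorylated at breaks, had 54.0 and 64.5 FPKM, against 98.3 and 107.4 FPKM (−0.79 ± 0.08; limma adjusted p = 0.000439). Of 11 tested members of the list of canonical histones 7 were higher, among them HIST1H2BK with 57.9 and 52.4 FPKM in the combination against 23.8 and 24.0 FPKM with olaparib (1.17 ± 0.09; limma adjusted p = 0.000128). The lower member was H1F0 (−0.84 ± 0.05), a linker histone that is not tied to replication, and 2 were lower without olaparib replicate 2. The libraries were made from polyadenylated RNA, and most canonical histone mRNA carries no polyA tail. Most of these genes were weakly expressed: 7 of 18 listed were below the filter, and at a mean of at least 5 FPKM 2 higher calls were left. Their near-identical sequences make single members uncertain. Of the 7 higher members, HIST1H2BC and HIST1H2AC had means of 0.588 and 0.918 FPKM with olaparib, and were also below 1 FPKM with DMSO. Their means of 1.21 and 1.35 FPKM over the 8 libraries passed the filter only through the groups given palbociclib, where they are high. HIST1H2BK and HIST1H2BD were above 1 FPKM in every library. The count of 7 of 11 thus rests in part on the filter.

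Outside the lists, the protein-coding genes with the lowest log2 fold change that passed without overlap began with C1QL1, a secreted C1q family protein, with 5.502 and 6.205 FPKM in the combination against 15.5 and 17.8 FPKM with olaparib (−1.36 ± 0.08; limma adjusted p = 7.01e-05). DDN, dendrin, had 2.49 and 2.68 FPKM in the combination, against 7.27 and 7.32 FPKM with olaparib (−1.21 ± 0.05; limma adjusted p = 2.49e-05). TMSB15A, an actin-binding thymosin, WDR76, a chromatin protein, NRTN, the ligand neurturin, and SPC25, a kinetochore subunit, fell by 1.195 ± 0.096, 1.195 ± 0.052, 1.17 ± 0.15 and 1.15 ± 0.07. With EGR1, the highest were S100A3, a calcium-binding protein (1.36 ± 0.13), TSPYL2, of the nucleosome assembly protein family (1.295 ± 0.065), GPR84, a receptor for fatty acids (1.23 ± 0.14), WBP1 (1.18 ± 0.06) and PBXIP1 (1.18 ± 0.04). TSPYL2 had 25.4 and 26.9 FPKM in the combination, against 9.87 and 10.3 FPKM with olaparib. GPR84 had 1.99 and 1.49 FPKM in the combination, against 0.251 and 0.0858 FPKM with olaparib, values near 0. Its mean of 1.14 FPKM passed the filter only through the groups given palbociclib, where it is high. TMEM87B, SLC34A3, a phosphate transporter, ABAT, which breaks down GABA, and YPEL5 lay between 1.13 and 1.17.

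Genes of other biotypes named by the same rule were short noncoding RNAs, whose levels in a polyA library are uncertain. RF00100, an RNA of the 7SK family, had 30 and 25 recovered reads in the combination, against 179 and 457 with olaparib (−2.95 ± 0.52; limma adjusted p = 0.00409), and 174 and 81 with palbociclib, against 12 and 20 with DMSO. The libraries within olaparib and within palbociclib differed widely. The other lowest were RF00093, a snoRNA with 0 and 2 reads in the combination and 7 and 6 with olaparib, and RNU6-762P, with no read in either combination library and 8 and 2 with olaparib. RF00093 lost its call without olaparib replicate 1 and RNU6-762P without either combination library, either DMSO library or olaparib replicate 1. The highest were MIR6719, MIR635 and MIR4312, with at most 24 reads in a combination or olaparib library.

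The label gives the cells an epithelial morphology, and the defining epithelial markers were near 0: none of the 7 epithelial markers in the table reached a mean of 1 FPKM, with summed levels of 1.18 to 1.40 FPKM in the combination and 0.530 to 0.646 FPKM with olaparib, and CDH1 at most 0.0124 FPKM. Mesenchymal markers summed to 348 to 349 FPKM in the combination and 245 to 252 FPKM with olaparib, nearly all of it VIM (339.7 and 339.2 FPKM in the combination, 243.4 and 236.7 FPKM with olaparib), and 3 of 4 reached a mean of 1 FPKM. Fibroblast markers summed to 52.2 to 53.8 FPKM in the combination and 46.7 to 50.5 FPKM with olaparib, with 3 of 4 at 1 FPKM or more and LUM the largest. No blood or endothelial marker reached a mean of 1 FPKM. LUM was the 1 called member of the 4 tested genes of other cell types (0.17 ± 0.06; limma adjusted p = 0.0476) and lost its call without either combination library, either DMSO library or olaparib replicate 2. The deposited FPKM summed to 264453 and 271980 in the combination and 281013 and 284708 with olaparib, and rescaling by median-of-ratios size factors changed no count of calls. Recovered depths were 20566158 and 24909592 reads in the combination, 23398802 and 29087336 with olaparib, and 21494132 to 34057055 in the other libraries. Over genes with at least 10 reads, the chi-square between the libraries of a group, divided by its degrees of freedom, was 3.74 in the combination and 3.54 with olaparib, above the 1 that counting error alone gives.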

How the data were processed

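Polyadenylated RNA of A2780 cells was sequenced after 24 h in 4 groups of 2 libraries, with NEBNext Ultra kits per the labels' protocols. Per the submitters' processing notes, which give no role or order, the tools were STAR 2.5.1b, HTSeq 0.6.0 and CASAVA 1.8 and the builds hg38 and GRCh38. The authors deposited FPKM values for 31721 Ensembl genes, but strand use in counting was not given in the sources used here, which leaves overlapping and antisense genes uncertain. Symbols, biotypes and positions are from GENCODE v29 on GRCh38, which held 30945 of the identifiers.

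Multiplied by exon length, the FPKM of 28635 genes (90.3%) gave whole reads within 0.01 in every library with the GENCODE v29 lengths. For the other 3086 a length was searched, so their whole values are no check. The resulting totals are the depths in the text, and only voom used these reads.

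For the tests, limma 3.58.1 (R 4.3.3) was run on log2(FPKM + 1), fitting group means to all 8 libraries in 1 fit (4 residual and 3.01 prior degrees of freedom), with a variance trend, two-sided tests and Benjamini-Hochberg adjustment over the 12443 genes with a mean of at least 1 FPKM. The 19278 genes below that were dropped. The log2(FPKM + 1) scale understates changes of weakly expressed genes. Errors of fold changes are SE, and those of levels are SD. An exact permutation test of 2 against 2 libraries cannot give a p under 0.333 and was not used. The fit was also run on simulated counts in which a limited set of genes changed, in the combination only. Those settings differ from these data, so the run does not show that the test holds here.

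The comparison, the gene lists and the rule for named genes were chosen with earlier results of these data known, the p53 pattern included, so counts within lists are descriptions and were not tested as sets. Named genes are the 12 protein-coding genes with the highest and the 12 with the lowest log2 fold change that passed without overlap, 3 each of other biotypes, up to 4 called members of each list in its more frequent direction and up to 3 in the other, 22 fixed genes such as PARP1 and CDK6, and the 5 lowest p for the departure, beside the genes whose promoters are printed. Replicate numbers did not pair the libraries: deviations of same-numbered libraries correlated at −0.0467 to 0.0342 between groups. Alternatives were a pseudocount of 0.1, a mean of at least 5 FPKM, no filter, TPM, quantile scaling, median-of-ratios scaling (which gave the same counts as the deposited values, so it is no separate check), no trend, voom, the 4 libraries alone, a replicate block, each library left out and, added after the data were seen, a GC correction. Results for a few genes are not reported here.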

Additional observations from a re-analysis of the deposited data

Results flagged for a closer look

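The identifier ENSG00000274519, which has no name in the annotation used, was the 1 gene whose response to palbociclib differed between cells with and without olaparib at limma's adjusted threshold. Its departure from additivity was −1.895 ± 0.131 (SE; limma adjusted p = 0.0221), being −0.69 ± 0.09 in the combination against olaparib and 1.21 ± 0.09 in palbociclib against DMSO. It had 6 and 7 recovered reads in the combination libraries and 10 and 15 with olaparib, and 17 and 23 with palbociclib and 10 and 8 with DMSO. The length used for these reads, 61 bases, was searched for and not read from the annotation. With 6 to 23 reads a library, the smallness of the counts bears on every value of this gene, and its part in the result was not tested.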

How the results depend on the processing

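With 2 libraries a group, 1 library can carry a call, and genes under about 1 FPKM were not tested. For the combination against olaparib, with 5522 calls, fits that left out 1 library gave 4080 to 5192 calls, not all of the same genes (higher 1533 to 1955, lower 2513 to 3237), and the count was 4251 with the 4 libraries alone. At a mean of at least 5 FPKM, where fewer genes were tested, 1234 were higher, and for palbociclib against DMSO 1411 were higher. Leaving out 1 library gave 4443 to 6345 calls for palbociclib against DMSO (higher 1629 to 2365, lower 2814 to 3981). With the replicate number as a block, 5696 genes were called for the combination against olaparib and 0 for the departure from additivity, and the numbers do not pair the libraries.

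The departure, with 1 call, had 0 with the GC correction and without a variance trend, 6 at a mean of at least 5 FPKM (6 lower, 0 higher), 33 without a filter (26 higher, 7 lower), 121 with voom (4 higher, 117 lower), and 0 to 2 with 1 library left out, lower 0 to 2. CDKN1A, BTG2 and DDIT4 passed at a mean of at least 5 FPKM and with voom. The 4 libraries alone give no departure. The cause of these shifts was not tested. Of 209 called named genes 166 were called under every alternative that gave a value. CCNE1 changed sign, to 0.111 (limma adjusted p = 0.0477) under quantile normalisation from −0.037.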

Other observations

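Among genes called at 1 or more on the log2 scale with palbociclib against DMSO, 83 of the 91 higher genes and 20 of the 29 lower genes had a smaller change in the combination against olaparib. These genes were chosen for their size in palbociclib against DMSO, which favours a smaller change in the other comparison, and no test is given. At that size, 60 genes were called higher and 41 lower in the combination against olaparib. The slope across all genes of combination over olaparib on palbociclib over DMSO was 0.712.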
